A study of Mus musculus with 6 samples.

Results

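The genes described here are 10 markers that separate 2 kinds of long-lived tissue macrophage, chosen by name and not by their values in these libraries. Mrc1, Cd163, Lyve1, F13a1 and Folr2 mark perivascular and other border macrophages, and P2ry12, Tmem119, Cx3cr1, Siglech and Sall1 mark microglia. All 10 were found among the 15663 genes listed for every mouse, and 8 of them had more than 50 counts in at least 2 samples and were tested among 13454 genes. Siglech and Sall1 stayed under that limit. RNA came from the RPE-choroid (retinal pigment epithelium, RPE, with the vascular choroid) of male C57BL/6 mice (C57BL/6J in the study's methods) that were 8 to 10 weeks old when obtained. The control group held 3 untreated mice. The subretinal fibrosis (SRF) group held 3 mice that received 4 laser burns per eye followed 10 days later by another burn on every lesion, and their tissue was taken 20 days after that. No gene was altered and no drug was under study in these mice. The laser was applied under pentobarbital anaesthesia with tropicamide and phenylephrine eye drops, and neither is stated for the control mice. No dissection of the lesions from the rest of the RPE-choroid is stated.

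Microglia live in the neural retina and brain, and a healthy subretinal space holds few of them. The choroid has its own macrophages, many of them beside blood vessels. Both kinds depend on the receptor CSF1R, while microglia carry more P2RY12, TMEM119 and SALL1 and perivascular macrophages carry more of the scavenger and uptake receptors MRC1, CD163, LYVE1 and FOLR2. None of these genes is fully private to 1 cell type. LYVE1 is also found on lymphatic endothelium, Siglech on plasmacytoid dendritic cells, P2RY12 on platelets, F13A1 and CX3CR1 on monocytes, and Tmem119 in bone-forming cells.

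Depth was between 13667310 and 24356023 counts per library, at which 3 counts equal 0.125 to 0.223 CPM. CPM are counts relative to library size, scaled here by edgeR's TMM method and are not corrected for gene length. The RPE label was borne out by 12 RPE genes with a high mean log2 CPM in all 6 libraries, at 9.94 to 10.03 in control and 9.52 to 9.77 in SRF mice. These levels did not overlap. Photoreceptor RNA was uneven and did not follow the groups. The mean log2 CPM of 16 photoreceptor genes reached 8.47 in control mouse 1 and 8.46 in SRF mouse 3, and was 5.59 at most in the other 4 libraries. SRF was compared with control by the quasi-likelihood test of edgeR with Benjamini-Hochberg adjustment across every tested gene. To be called, a gene had to reach an adjusted p below 0.05 and differ by 0.5 or more on the log2 scale. The median log2 fold change of the RPE genes was -0.43, and 5 of the 12 had an unadjusted p-value under 0.05 in edgeR, all lower in SRF mice, against 2.85% of all tested genes. In 6 of the 12 the groups did not overlap with SRF lower, against 6.43%, and DESeq2 called 3. The part of this RPE difference in the marker values was not tested.

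No marker was called in either direction, and neither was any other gene in this test (0% of the 13454 tested). The log2 fold changes (SRF minus control) of the perivascular genes ran from -0.34 for Lyve1 to 0.30 for Mrc1, with a median of 0.19 over the 5. Those of the 3 tested microglia genes ran from 0.43 for P2ry12 to 0.87 for Cx3cr1, with a median of 0.45, the value of Tmem119. Over all tested genes the median was 0.00. Of the 8 tested markers 6 had a log2 fold change above 0, as had 50.3% of all tested genes. DESeq2 on the same counts called 1.14% of the tested genes (0.803% higher and 0.334% lower in SRF mice) and 0 of the 8 tested markers. Before adjustment, 943 genes had a p-value under 0.05 in edgeR. Among them, 4.16% of the tested genes were higher in SRF mice, and Cx3cr1 was the 1 marker of the 8 tested. A further 2.85% were lower in SRF mice, with 0 of the markers. In whole tissue, fewer cells of a type and less RNA per cell cannot be told apart.

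**Figure D1:**
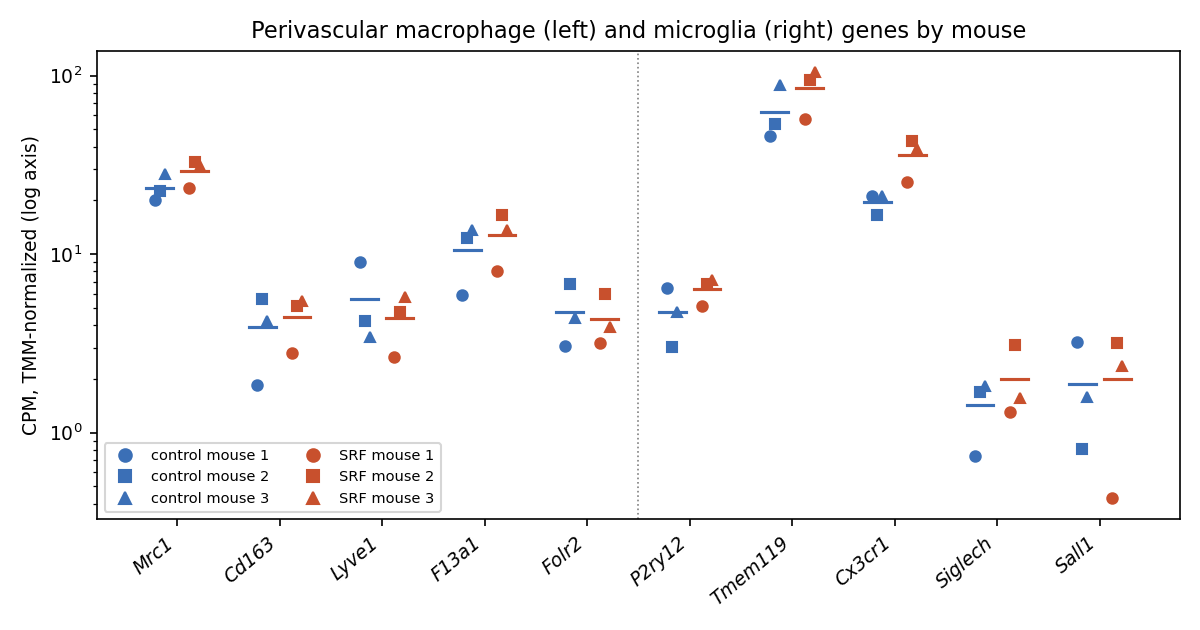
TMM-normalized CPM of the 10 marker genes on a log axis, with 1 point per mouse (control in blue, SRF in orange, mouse number by symbol) and a bar at each group mean (n = 3). Perivascular macrophage genes stand left of the dotted line and microglia genes right of it, and only for Cx3cr1 do the 3 SRF mice all lie above the 3 control mice.

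Cx3cr1 (ENSMUSG00000052336, chromosome 9 of GRCm38, 119901616 to 120069879, minus strand) encodes the receptor for fractalkine. Its level was 21.2, 16.6 and 21.2 CPM in control mice 1, 2 and 3 and 25.4, 43.3 and 38.9 CPM in SRF mice 1, 2 and 3. Every SRF mouse was above every control mouse, with SRF mouse 1 the closest to them. Of all tested genes, 6.71% had non-overlapping groups with SRF higher and 6.43% with SRF lower, and of the 8 tested markers 1 and 0 did. The means were 19.7 ± 2.67 CPM (SD, n = 3) and 35.9 ± 9.36 CPM (SD, n = 3). This gave a log2 fold change of 0.87 with a 95% interval from 0.34 to 1.39. After Benjamini-Hochberg adjustment Cx3cr1 had a p-value of 0.410 by edgeR and 0.0595 by DESeq2, so it passed in neither. Adjusted values for this gene ran from 0.0595 to 0.9999 over 18 other settings of edgeR, DESeq2 and limma, and its log2 fold change stayed between 0.71 and 1.06. In the authors' FPKM, a unit that divides by transcript length, the groups were also apart, at 6.37, 4.92 and 6.42 in control mice against 7.91, 13.67 and 12.22 in SRF mice.

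Tmem119 (ENSMUSG00000054675, chromosome 5, 113793729 to 113800516) encodes a membrane protein that serves as a microglia label in tissue staining. It had 45.7, 53.4 and 88.6 CPM in control mice 1, 2 and 3 and 57.5, 95.2 and 104.9 CPM in SRF mice 1, 2 and 3. Control mouse 3 reached the range of the SRF mice and SRF mouse 1 that of the control mice. The log2 fold change was 0.45 (95% interval -0.28 to 1.19), within the spread between mice. P2ry12 (ENSMUSG00000036353, chromosome 3, 59216272 to 59262871), an ADP receptor that guides microglial processes to injury, was at 6.48, 3.04 and 4.71 CPM in control mice and at 5.14, 6.79 and 7.17 CPM in SRF mice. Control mouse 1 was above SRF mouse 1, and the log2 fold change of 0.43 had a 95% interval from -0.37 to 1.23. P2ry12 shares exonic sequence with Med12l on the opposite strand, and the strandedness of the counts is not given in the sources used here. Med12l was at 9.01, 5.91 and 6.80 CPM in control and 6.87, 5.46 and 6.50 CPM in SRF mice, with control mouse 1 highest of the 6 for this gene.

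The other microglia markers had low counts and stayed under the count filter. Siglech (ENSMUSG00000051504, chromosome 7, 55768178 to 55778925), a sialic acid-binding lectin, was counted 10, 31 and 44 times in control mice 1, 2 and 3 and 24, 56 and 28 times in SRF mice 1, 2 and 3, and the groups overlapped. In a fit of every listed gene its log2 fold change was 0.47, with a 95% interval from -0.73 to 1.67. Sall1 (ENSMUSG00000031665, chromosome 8, 89027235 to 89044162), a transcription factor that keeps microglia in their resting identity, was counted 43, 15 and 38 times in control mice and 8, 57 and 42 times in SRF mice. Relative to library size, SRF mouse 1 was lowest at 0.433 CPM, and control mouse 1 and SRF mouse 2 were level at 3.20 and 3.17 CPM. The log2 fold change in the same fit was 0.10, with a 95% interval from -1.69 to 1.90, which leaves room for a large difference in either direction. Of 8 plasmacytoid dendritic cell genes other than Siglech, 7 were listed and 6 tested. Among the 6, 1 had an unadjusted p-value under 0.05 in edgeR, higher in SRF mice, against 4.16% of all tested genes. That gene was Irf8 (log2 fold change 0.54), which macrophages express as well. The median log2 fold change of the 6 was 0.38, and 5 of them were above 0, up to 0.59 for Runx2, with Ccr9 at -0.63. The part of these cells in the Siglech counts was not tested.

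Among the perivascular genes, Mrc1 (ENSMUSG00000026712, chromosome 2, 14229392 to 14332057), the mannose receptor CD206, was the most abundant in CPM. It was at 20.2, 22.5 and 28.1 CPM in control mice 1, 2 and 3 and at 23.4, 33.0 and 31.3 CPM in SRF mice 1, 2 and 3. SRF mice 2 and 3 were the highest, but SRF mouse 1 lay among the control mice. The log2 fold change of 0.30 had a 95% interval from -0.14 to 0.75. Cd163 (ENSMUSG00000008845, chromosome 6, 124304656 to 124330527) takes up haemoglobin bound to haptoglobin. It was at 1.86, 5.59 and 4.21 CPM in control and 2.81, 5.12 and 5.43 CPM in SRF mice, with a log2 fold change of 0.19 (95% interval -0.92 to 1.30). F13a1 (ENSMUSG00000039109, chromosome 13, 36867178 to 37050244), the A chain of coagulation factor XIII, was at 5.88, 12.3 and 13.7 CPM in control and 8.06, 16.6 and 13.6 CPM in SRF mice (log2 fold change 0.26, 95% interval -0.65 to 1.17). For both genes the lowest level was in control mouse 1 and the next in SRF mouse 1. Without control mouse 1 their log2 fold changes turned, to -0.13 for Cd163 and -0.025 for F13a1.

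Folr2 (ENSMUSG00000032725, chromosome 7, 101839988 to 101857194), the folate receptor beta, had the same low libraries. Its level was 3.05, 6.84 and 4.38 CPM in control mice and 3.19, 5.96 and 3.92 CPM in SRF mice 1, 2 and 3, a log2 fold change of -0.13 with a 95% interval from -1.08 to 0.82. The sign of the Folr2 difference turned without control mouse 2, to 0.22, and without SRF mouse 1, to 0.05. Lyve1 (ENSMUSG00000030787, chromosome 7, 110850607 to 110863239), a hyaluronan receptor, differed in control mouse 1, where its level was highest. Its lowest level was in SRF mouse 1. It was at 9.08, 4.23 and 3.42 CPM in control and 2.65, 4.73 and 5.77 CPM in SRF mice, a log2 fold change of -0.34 with a 95% interval from -1.46 to 0.78. Without control mouse 1 the log2 fold change of Lyve1 was 0.20. Since lymphatic endothelium carries LYVE1 too, 6 genes of that cell type were examined. Their log2 fold changes lay between -0.38 for Pdpn and -0.0094 for Flt4. Only Pdpn of the 6 had an unadjusted p-value under 0.05 in edgeR, lower in SRF mice, against 2.85% of all tested genes. The mean log2 CPM of the 6 was 4.67 to 5.21 in control and 4.54 to 5.12 in SRF mice. The part of these cells in the Lyve1 values was not tested.

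**Figure D2:**
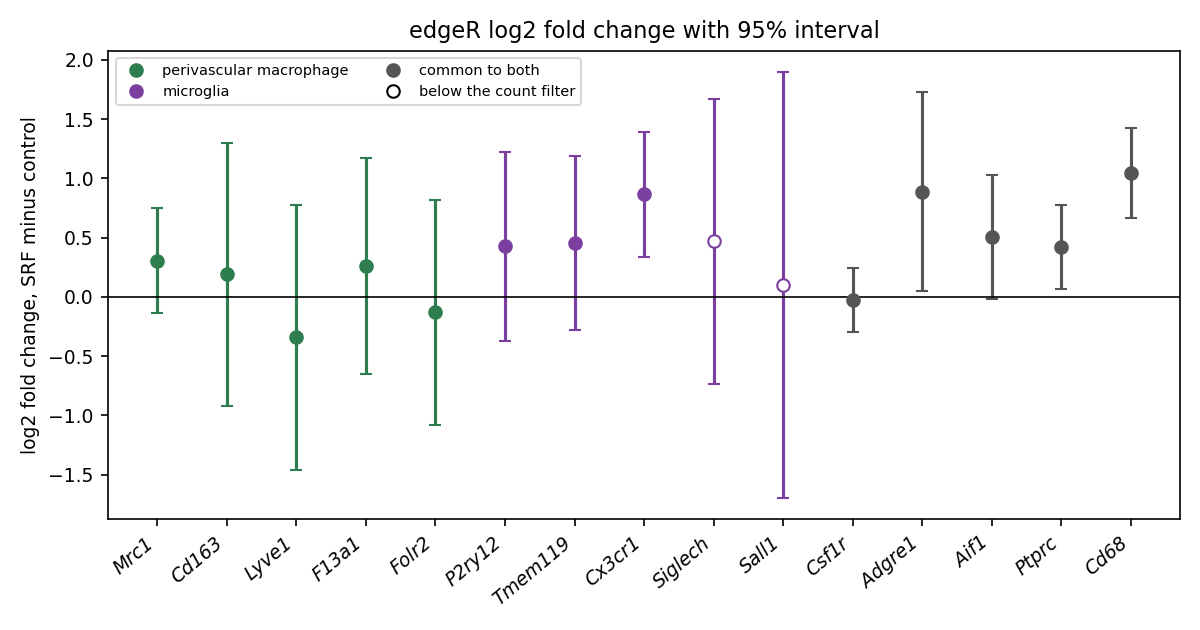
Log2 fold change (SRF minus control) from edgeR, with 95% intervals as bars, for the 5 perivascular genes, the 5 microglia genes and 5 genes that both cell types share. The intervals of Cx3cr1, Adgre1, Ptprc and Cd68 lie above 0 before adjustment for the number of genes, and open points (Siglech, Sall1) are genes below the count filter, fitted without it.

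Levels can be compared between genes only per length, and on the authors' FPKM scale Tmem119 was far above the other markers in control mice, at 27.4 ± 10.1 FPKM (SD, n = 3). Cx3cr1 came next at 5.90 ± 0.85, followed by Folr2 at 4.48 ± 1.63, Mrc1 at 4.31 ± 0.75, F13a1 at 2.65 ± 1.03, P2ry12 at 2.22 ± 0.83, Lyve1 at 1.89 ± 1.04, Siglech at 0.97 ± 0.30, Cd163 at 0.86 ± 0.42 and Sall1 at 0.35 ± 0.23 FPKM. Only 2 steps in this order were larger than the spread between control mice. The ranges of Tmem119 and Cx3cr1 did not overlap, and neither did those of Mrc1 and F13a1, while all other neighbours overlapped. The microglia markers thus did not share 1 level, since Tmem119 and Sall1 stood at opposite ends. Which cells supplied the Tmem119 RNA was not tested.

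To set the kinds of macrophage against each other, the log2 CPM of each 5 genes was averaged in every mouse. The perivascular mean was 2.54, 3.10 and 2.93 in control mice 1, 2 and 3 and 2.44, 3.26 and 3.15 in SRF mice 1, 2 and 3. The microglia mean was 2.80, 2.40 and 2.95 in control and 2.46, 3.63 and 3.36 in SRF mice. Each mean was higher in SRF mice 2 and 3 than in any control mouse, and in SRF mouse 1 it was as low as in the lower control mice. The difference, perivascular minus microglia, was -0.27, 0.70 and -0.03 in control mice and -0.01, -0.36 and -0.22 in SRF mice. The ranges of this difference overlapped, and its group means of 0.13 ± 0.50 and -0.20 ± 0.18 (SD, n = 3) lay closer together than the spread of the control mice. Control mouse 2 alone carried the high value. The microglia mean weights Siglech and Sall1, both under the count filter, as much as each of the 3 tested genes. Sall1 ran from 0.433 CPM in SRF mouse 1 to 3.20 CPM in control mouse 1. The overlap therefore rests in part on low counts, and the difference was not computed without Siglech and Sall1.

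**Figure D3:**
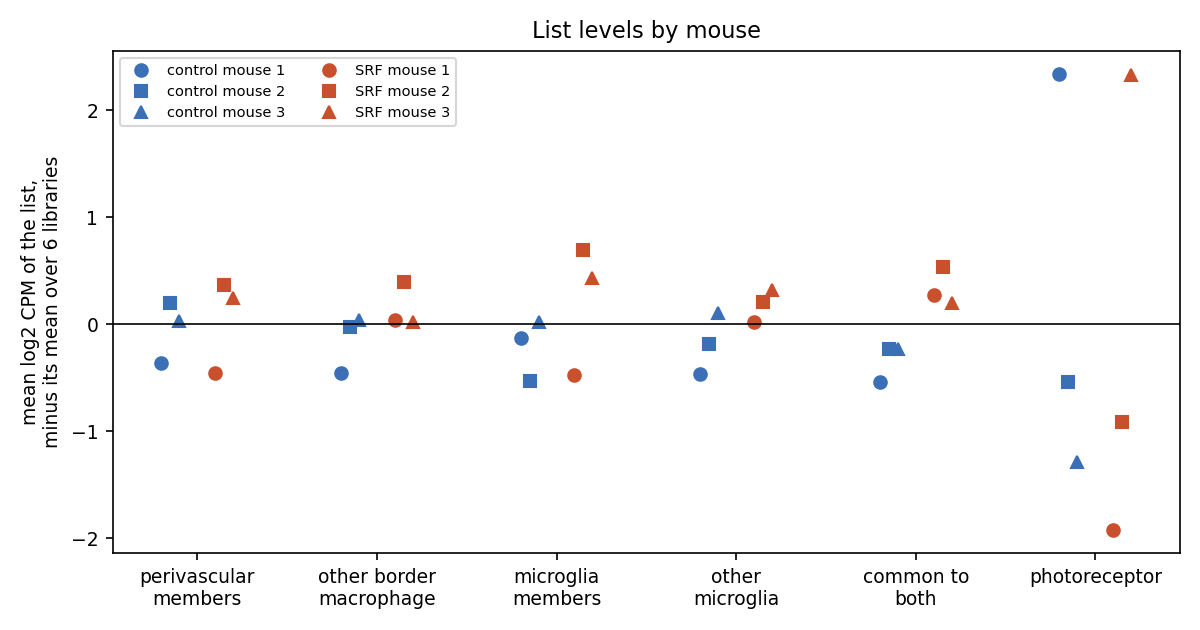
Mean log2 CPM of 6 gene lists in each mouse, centred on the mean of the 6 libraries, with control in blue, SRF in orange and the mouse number by symbol. Genes common to macrophages and microglia separate the groups, the perivascular and microglia markers do not, and the photoreceptor list separates control mouse 1 and SRF mouse 3 from the other 4 mice.

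Genes that macrophages and microglia share gave a different picture. All 14 such genes were tested, and 11 had an unadjusted p-value under 0.05 with a higher level in SRF mice, against 4.16% of all tested genes. In 10 of the 14 the groups did not overlap, against 6.71%. The median log2 fold change was 0.79, and DESeq2 called 7 of the 14, where it called 0.803% of tested genes as higher. Several of these genes are in the study's own list of changed genes, called on the same counts, so these calls are no independent evidence of a direction. Cd68, a lysosomal membrane protein of phagocytes, had the highest log2 fold change at 1.05, and C1qb, a chain of complement C1q, had 0.90. The paper also measured Cd68 and C1qb by quantitative PCR in RPE-choroid and reports the same direction for both. Adgre1, which encodes the macrophage antigen F4/80, was at 12.4, 15.1 and 21.2 CPM in control and 16.1, 35.4 and 38.9 CPM in SRF mice (log2 fold change 0.89). Aif1, which encodes IBA-1, was at 16.9, 17.3 and 14.3 CPM in control and 24.9, 27.8 and 16.1 CPM in SRF mice (log2 fold change 0.51). Both overlapped between the groups.

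Csf1r was the exception in that list. The receptor was at 146, 165 and 175 CPM in control mice 1, 2 and 3 and at 166, 151 and 161 CPM in SRF mice 1, 2 and 3. Its log2 fold change was -0.03 with a 95% interval from -0.30 to 0.24, a narrow range in which the SRF mice lay inside that of the control mice.

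Longer lists of both kinds were examined as well. Of 12 other border and perivascular macrophage genes, 9 were tested, with a median log2 fold change of 0.14, and 1 of them had an unadjusted p-value under 0.05 with SRF higher, against 4.16% of all tested genes. That gene was Ms4a7, a membrane-spanning gene of macrophages, at 54.3, 59.4 and 56.8 CPM in control and 112, 131 and 104 CPM in SRF mice (log2 fold change 1.02). Its groups did not overlap, and it was the 1 gene of the 9 that DESeq2 called, against 0.803% of all tested genes called as higher. Colec12 and Gas6 followed at 0.39 and 0.37, and Cd209f was at 0.01. Of 10 other microglia genes, 8 were tested, with a median of 0.59, and 4 had an unadjusted p-value under 0.05, all higher in SRF mice, against the same 4.16%. In 3 of the 8 the groups did not overlap with SRF higher, against 6.71%, and DESeq2 called 2. Trem2, a lipid-sensing receptor of phagocytes, was at 23.8, 34.7 and 27.2 CPM in control and 64.6, 75.1 and 47.9 CPM in SRF mice (log2 fold change 1.13). Fcrls, an Fc receptor-like gene of microglia, was at 14.4, 19.1 and 20.03 CPM in control and 26.9, 32.2 and 32.7 CPM in SRF mice (log2 fold change 0.78). For Trem2 and Fcrls the groups did not overlap and DESeq2 called both. The study found its changed genes with DESeq2 on the same counts, so the calls of Ms4a7, Trem2 and Fcrls are no independent evidence. P2ry13, a purine receptor, had a log2 fold change of 0.74 with overlapping groups, and Ltc4s had -0.21. The lists themselves were not tested, and a difference between them is a description.

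Each marker was also read against Csf1r in the same mouse, as a log2 ratio of CPM. Cx3cr1 was 3.05 ± 0.26 log2 units under Csf1r in control mice and 2.19 ± 0.47 in SRF mice (SD, n = 3), and the groups did not overlap (two-sided exact permutation test, p = 0.1, which is the smallest that 3 against 3 allow, and 0.5 after Benjamini-Hochberg adjustment over the 10 ratios). For the other 9 markers the groups overlapped in this ratio. The choice of reference decided the sign of most of these differences. Against the mean of the 14 shared genes, 9 of the 10 markers had a lower ratio in SRF mice. Cx3cr1 was 0.17 higher with overlapping groups, and Folr2 was 0.77 lower without overlap (two-sided exact permutation test, p = 0.1, and 0.778 after adjustment over the 10). Relative to the shared genes, Mrc1 was 0.37, Cd163 0.39, F13a1 0.38 and Lyve1 0.96 log2 units lower in SRF mice, each with overlapping groups. A change of reference moves all 10 markers by the same amount in each mouse. The shared genes were themselves higher in SRF mice, with a median log2 fold change of 0.79. The lower ratios therefore follow in part from the reference and are no separate evidence of fewer marker transcripts.

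**Figure D4:**
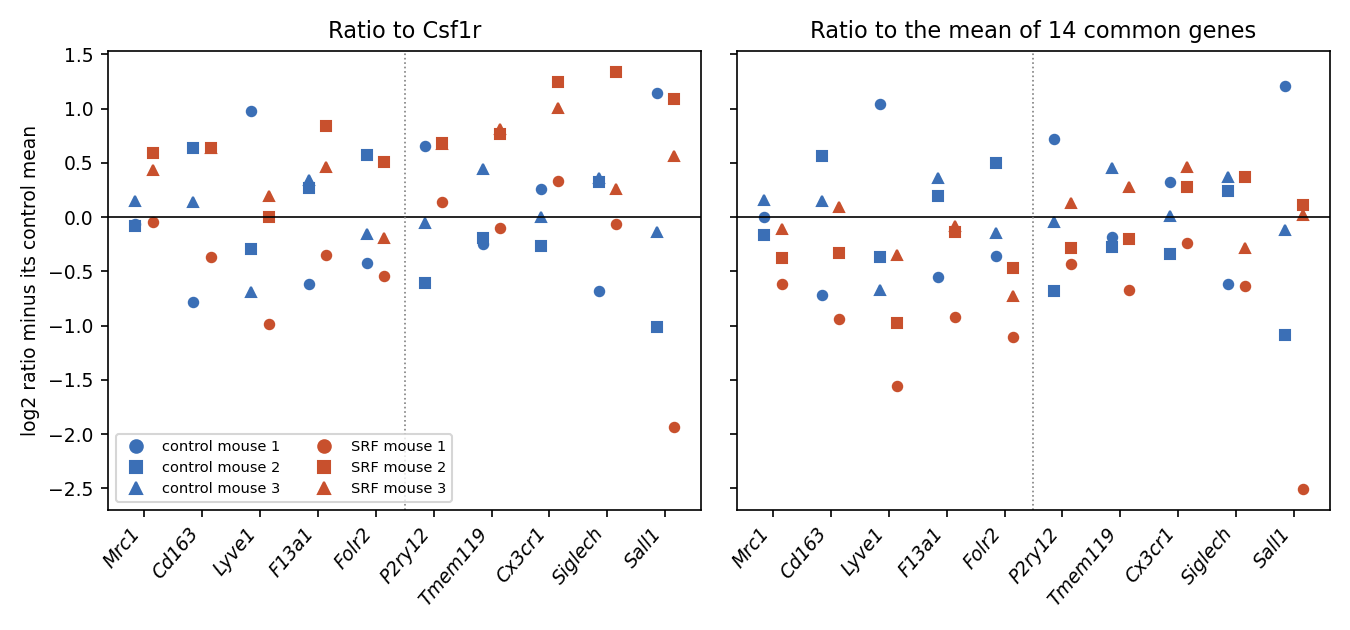
Log2 ratio of each marker to Csf1r (left) and to the mean log2 CPM of 14 genes common to macrophages and microglia (right), 1 point per mouse, each minus the mean of the 3 control mice. Cx3cr1 in SRF mice lies above the control mice on the left and among them on the right, and Folr2 in SRF mice lies below the control mice on the right.

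The growth factors and signals on which these cells depend were examined as a list of 10 genes, all of them tested. Of these, 0 had an unadjusted p-value under 0.05 in edgeR, against 4.16% of all tested genes higher and 2.85% lower in SRF mice. CSF1 and IL-34 are the ligands of CSF1R. Csf1 was at 29.9, 38.3 and 46.3 CPM in control and 42.5, 55.0 and 49.6 CPM in SRF mice (log2 fold change 0.36), and Il34 had a log2 fold change of 0.01. Cx3cl1, the ligand of CX3CR1, varied little, from 104 to 109 CPM in control and from 106 to 109.5 CPM in SRF mice (log2 fold change 0.02, 95% interval -0.20 to 0.24). TGF-beta signals maintain microglial identity. Tgfb1 was at 3.50, 2.77 and 3.25 CPM in control and 4.06, 4.96 and 4.71 CPM in SRF mice without overlap (log2 fold change 0.53). It was the 1 gene of the 10 whose groups did not overlap, against 6.71% of all tested genes with SRF higher. Tgfbr1, Tgfbr2 and Nrros, which encodes the TGF-beta anchoring protein of microglia, had log2 fold changes of 0.19, 0.22 and 0.36. For the enzymes that turn ATP and ADP into adenosine around P2RY12, Entpd1 had 0.15 and Nt5e had -0.49.

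The genes whose profile over the 6 libraries was nearest to the perivascular mean were Clca3a1, Clec4a1 and Kcnk6, with a root mean square difference of 0.05, 0.05 and 0.09 on the centred log2 scale. Clec4a1, a C-type lectin of myeloid cells, was at 4.09, 6.62 and 6.01 CPM in control and 4.16, 7.29 and 6.55 CPM in SRF mice, lowest in control mouse 1 and SRF mouse 1. Nearest to the microglia mean were Bst1, Robo1 and Fut4, at 0.10, 0.12 and 0.12. These 3 were highest in SRF mouse 2 and lowest in control mouse 2. All these genes were picked for their likeness to the marker means. Shared high and low libraries follow from that choice and are no separate evidence.

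Retinal tissue is a source of microglia, and its RNA differed between libraries. With the photoreceptor level as a covariate the log2 fold changes of Cx3cr1, Tmem119 and P2ry12 were 0.88, 0.45 and 0.49, and 0 markers were called. Without control mouse 1 and SRF mouse 3, a setting chosen after seeing the data, edgeR called 1.16% of 13145 genes and 0 markers. Cx3cr1 then had a log2 fold change of 0.85 and a Benjamini-Hochberg adjusted p of 0.148 by edgeR, and Tmem119 had a log2 fold change of 0.097. The perivascular median was -0.083 in that setting, and the log2 fold changes of Cd163 and F13a1 turned to -0.31 and -0.083.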

How the data were processed

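Libraries from 3 control and 3 SRF mice were analysed, with groups and mouse numbers taken from the sample labels. The authors filtered reads with FASTP, used StringTie for gene-level read counting and deposited whole-number counts without normalization. The FPKM values deposited by the authors scale fragments by transcript length and mapped reads. The aligner, genome build, annotation and strandedness are not given in the sources used here. Symbols and positions came from GENCODE M21 on GRCm38, which held 15659 of the 15663 identifiers. Every listed gene has at least 1 count in each library.

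The study's count filter (over 50 counts, 2 samples or more) was applied before testing with edgeR 4.0.16 (TMM, glmQLFit and glmQLFTest in the installed form, group as the only term) in R 4.3.3. Intervals were computed from the standard error and degrees of freedom of the fit. DESeq2 1.42.0, which the study used, and limma 3.58.1 on log2(FPKM + 0.1) or log2(FPKM + 1) were alternatives, beside other normalizations, no filter, a photoreceptor covariate, a replicate block and each mouse left out. The scripts were tested on simulated data, with each gene drawn independently. The simulation lacked the photoreceptor difference that many genes share in the real libraries. There edgeR recovered 26% of genes with a true log2 fold change of 1 either way and 82% of those with 2. Of its 116 called genes, 8 were false. DESeq2 recovered 57% and 91%, with 62 false among 210 called. A gene not called by edgeR can therefore still differ, and some DESeq2 calls can be false. The simulated rates need not hold in the real libraries, where edgeR called 0 genes.

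The markers and lists were chosen with earlier results of these data known. Named were all markers, Csf1r, Adgre1, Aif1, the signal list, the 3 nearest genes per marker group and, of each other list, at most the 3 largest and the smallest changes. Ptprc served as an alternative reference, and Med12l is named for its overlap with P2ry12.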

Additional observations from a re-analysis of the deposited data

How the results depend on the processing

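The number of marker genes called was 0 in all 18 other settings. The number of all tested genes called was 0 in the main setting and 153 with DESeq2, 154 with DESeq2 without the count filter and 153 in edgeR without control mouse 1 and SRF mouse 3. It was 1 in edgeR with the newer form of the fit, with upper quartile normalization, without the count filter and with the photoreceptor covariate, 2 in each of the 3 limma fits on FPKM, and 0 to 5 with each mouse left out, the 5 without control mouse 1. The difference of the medians, perivascular minus microglia, was -0.27, was -0.69 without control mouse 1 and SRF mouse 3, and lay between -0.74 and -0.081 with each mouse left out, lowest without control mouse 1 and highest without control mouse 2. The perivascular median lay between -0.025 and 0.43 and the microglia median, over 3 tested genes, between 0.35 and 0.79 with each mouse left out. Of the log2 fold changes of single markers, 7 of 148 turned: without control mouse 1 Cd163 to -0.13, Lyve1 to 0.20 and F13a1 to -0.025, without control mouse 2 Folr2 to 0.22, without SRF mouse 1 Folr2 to 0.05, and without both photoreceptor-rich libraries Cd163 to -0.31 and F13a1 to -0.083. With each mouse left out Cd163 lay between -0.13 and 0.54, Lyve1 between -0.60 and 0.20, F13a1 between -0.025 and 0.50 and Folr2 between -0.42 and 0.22. The cause was not tested. Of the ratios to Csf1r, 9 of 30 turned: against Ptprc those of Mrc1 (-0.13), Cd163 (-0.16) and F13a1 (-0.14), and against the shared genes those of Mrc1 (-0.37), Cd163 (-0.39), F13a1 (-0.38), P2ry12 (-0.19), Tmem119 (-0.20) and Siglech (-0.18).

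A control and an SRF mouse that carry 1 number are separate animals. Their deviations around the group means correlated across genes at -0.48, 0.48 and -0.30. Pairs with unlike numbers correlated between -0.70 and 0.61, so these values do not show whether the number marks anything shared. In the fit with a replicate block for the number, the medians were 0.27 and 0.48, their difference was -0.21 and 0 genes were called. Siglech and Sall1 had 8 to 57 counts per library. Nothing states that each library came from 1 eye or several. The edgeR p-values set a group difference against the spread between these 6 libraries within their groups.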

Other observations

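Of 8 monocyte genes 6 were tested, with log2 fold changes from -1.20 to 0.55 and a median of -0.03, 3 above and 3 below 0. Of the 6, 2 had an unadjusted p-value under 0.05 with SRF lower and 1 with SRF higher, against 2.85% and 4.16% of all tested genes. In 2 of the 6 the groups did not overlap with SRF lower, against 6.43%. Ly6c2, a surface antigen of inflammatory monocytes, was at 3.42, 2.88 and 3.00 CPM in control and 1.57, 1.17 and 1.29 CPM in SRF mice (log2 fold change -1.20). The groups did not overlap for this gene. Ly6c2 did not pass in edgeR's quasi-likelihood test or in DESeq2, where its adjusted p-value was 0.228 with Benjamini-Hochberg adjustment. Fn1 was at 86.1, 84.3 and 117 CPM in control and 107, 163 and 151 CPM in SRF mice (log2 fold change 0.55), and many cell types make it.

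Platelet and endothelial genes were examined because platelets also carry P2RY12 and perivascular cells sit on vessels. None of 3 tested platelet genes and 8 tested endothelial genes had an unadjusted p-value under 0.05 in edgeR. Among all tested genes the share was 4.16% higher and 2.85% lower in SRF mice, so in lists this short a count of none says little. The endothelial median log2 fold change was 0.03. Inner retina and Mueller glia genes had a mean log2 CPM of 5.65 in control mouse 1 and 5.88 in SRF mouse 3, against 3.78 to 4.17 in the other 4 mice.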
